A study of Astyanax mexicanus with 22 samples.

Results

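The genes described here are regulators of the translation and decay of mRNA that oocytes store for the embryo. They were chosen by symbol and by a minimum count: subunits of the CCR4-NOT and PAN2-PAN3 deadenylases and their Tob1 adaptors, poly(A)-binding proteins, CPEB, Pumilio, CELF and Zfp36 proteins, Lsm proteins, decapping factors, Xrn exonucleases, nucleotidyltransferases that extend RNA tails, and Ythdf and Igf2bp readers. Of 27420 genes in the count table, 81 had a matching symbol, and 75 of these reached 10 counts in at least 2 libraries. The other 6 (celf4, CELF5, CELF3, TENT5D, TENT5A and CELF6) never exceeded 9 counts in a library and are not described further. All 75 members were abundant enough to be tested, and 71 of them reached that minimum in both forms of the fish. The exceptions were zfp36l1b, zfp36l2 and igf2bp2a, which reached it in Pachón libraries alone, and CPEB2, which reached it in surface libraries alone. The minimum itself favoured a difference for these 4, and no value of theirs is taken as support for one. These 4 stay in the counts over members.

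Right-side ovaries were sampled from Astyanax mexicanus, a species in which rivers hold sighted surface fish and the Pachón cave holds a blind form. All fish carried the genotype label WT. Pachón fish were starved (4 libraries of the batch labelled old, 2 of the batch labelled new) or kept as untreated controls (4 old, 2 new), and surface fish were starved (2 old, 2 new) or kept as untreated controls (4 old, 2 new). The series design gives ages of about 500 and 1200 days for its batches of age-matched fish without tying an age to old or new, so batch and age cannot be told apart, and no source used here gives the length of starvation.

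Growing oocytes transcribe a large store of mRNA and then fall silent, so the proteins made during maturation and early cleavage depend on which stored messages are translated and which are destroyed. Shortening of the poly(A) tail by the CCR4-NOT and PAN2-PAN3 complexes silences a message and exposes it to decapping by Dcp2 and to digestion by Xrn1, whereas CPEB proteins with the poly(A) polymerase Tent2 (GLD2) lengthen the tail and switch translation on. RNA-binding proteins such as Pumilio, CELF and Zfp36 family members recruit the deadenylase to particular messages, and Lsm14 and DDX6 keep others repressed in storage granules.

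Each of the 22 libraries held between 4860620 and 7513790 gene counts. Levels are given in CPM, counts per 1e+06 gene counts after TMM scaling. They are not corrected for transcript length, so levels are compared between libraries and not between genes, except to show counting depth. Changes are log2 values ± SE of edgeR's quasi-likelihood fit across 15607 genes, and a gene is called where the adjusted p is under 0.05. The labels do not say whether replicates came from different fish, and the p-values therefore measure only how far these samples spread. In a bulk sample, fewer cells of a type and less RNA per cell cannot be told apart. Of 15 oocyte markers looked for, the 8 found in the table (bmp15, buc, dazl, ddx4, figla, gdf9, mos and zar1) had counts in every library, with a summed level of 2722 to 3655 CPM in starved Pachón fish, 2417 to 3458 CPM in control Pachón fish, 2943 to 4925 CPM in starved surface fish and 2510 to 3002 CPM in control surface fish.

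One library stood apart. Replicate 2 of the new-batch starved surface group had the lowest TMM factor (0.833, against 0.954 to 1.07 in the other 21 libraries) and the highest oocyte marker sum (4925 CPM, against at most 3655 CPM elsewhere). It also held the highest level of all 22 libraries for 28 of the 75 members and the lowest for 9. The same shares over all genes were not taken, so these counts do not set the members apart from other genes. The translational activator cpeb1b reached 2791 CPM there, against 1264 to 1537 CPM in the other starved surface libraries. The poly(A)-binding protein gene pabpc1b reached 2658 CPM, against 1506 to 1762 CPM in the others. The storage-granule gene lsm14b reached 833 CPM, against 374 to 433 CPM. Among the members lowest there, the deadenylase gene cnot6l was at 12.7 CPM, against 22.9 to 31.7 CPM in the other starved surface libraries.

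As a group the members took between 1.45% and 1.73% of the gene counts of every library. Their counts summed to 1.45% to 1.63% of gene counts in starved Pachón libraries, 1.47% to 1.58% in control Pachón libraries, 1.54% to 1.73% in starved surface libraries and 1.53% to 1.59% in control surface libraries. Members also held more counts, with a median log2 CPM of 6.66 against 4.35 over all genes tested. Not matched for counts, the median SD within the study's 8 groups was 0.19 over members, against 0.30 over all genes (log2 CPM). The tightest member was tent4b, a tail-extending enzyme that works with the nuclear exosome, at an SD of 0.05. It lay between 138.8 and 154.7 CPM in starved Pachón fish, 138.5 and 154.5 CPM in control Pachón fish, 152 and 157 CPM in starved surface fish and 142 and 153 CPM in control surface fish.

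The first question was how the Pachón ovary differs from the surface ovary. Between control fish, 8 of the 75 members were higher and 13 lower in Pachón (28%), where 34.6% of all genes tested were called (16.6% higher and 18% lower). Between starved fish, 10 were higher and 19 lower in Pachón (38.7%), where 36% of all genes tested were called (18.3% higher and 17.7% lower). The members' share of calls was thus near that of all genes. The differences were mostly small: the median absolute log2 difference was 0.18 over members and 0.33 over all genes in control fish, and 0.23 over members and 0.37 over all genes in starved fish. These medians were not matched for counts, of which members held more. At least a 2-fold difference was fitted for 6 of the 21 members called in control fish and for 9 of the 29 called in starved fish. Over all genes it was fitted for 2411 of the 5401 called in control fish and 2693 of the 5617 called in starved fish. Both member tallies include igf2bp2a, and the starved one zfp36l2, which reached the minimum count through Pachón libraries alone. Both also include the low-count rows celf2, tent5ab and tent5ba. The control and starved comparisons share no library, and 19 members were called in both, all with the same sign (7 higher and 12 lower in Pachón). The higher ones include igf2bp2a, and the calls in starved fish include zfp36l2, both of which reached the minimum count through Pachón libraries alone. The 19 were 90.5% of the members called in control fish and 65.5% of those called in starved fish, against 68.7% and 66.1% of the calls over all genes. Within single batches the members called numbered 20 in control fish of the old batch (30.4% of all genes), 8 in control fish of the new batch (14.9%), 17 in starved fish of the old batch (28.4%) and 7 in starved fish of the new batch (16.7%). Called in each batch on its own were 3 members in starved fish (dcp2, dcp1a and cnot7) and 4 in control fish (dcp2, dcp1a, ZFP36L2 and a TENT4A row). By limma voom with sample weights 13 of the 29 calls in starved fish were lost, those of celf2, cnot2, cpeb1a, CPEB4, igf2bp2a, lsm8, pabpc1l, PAN2, tob1b, TUT4, xrn1, xrn2 and zfp36l2. Over all genes limma voom called 3527 in starved fish, where edgeR called 5617. Without the library that stood apart, the median log2 difference over members in starved fish was 0.00 in place of -0.09. Of the 29 calls in starved fish 8 were lost without it, those of cnot2, cnot6a, igf2bp2a, lsm8, PAN2, TUT4, xrn1 and xrn2. A call in one state and not in the other does not show that the states differ: the test of that difference, given below for starvation, called no member. The libraries of both forms did not overlap for 15 members in starved fish (21.5% of all genes) and 13 in control fish (18.6%). The 15 include zfp36l2.

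**Figure D1:**
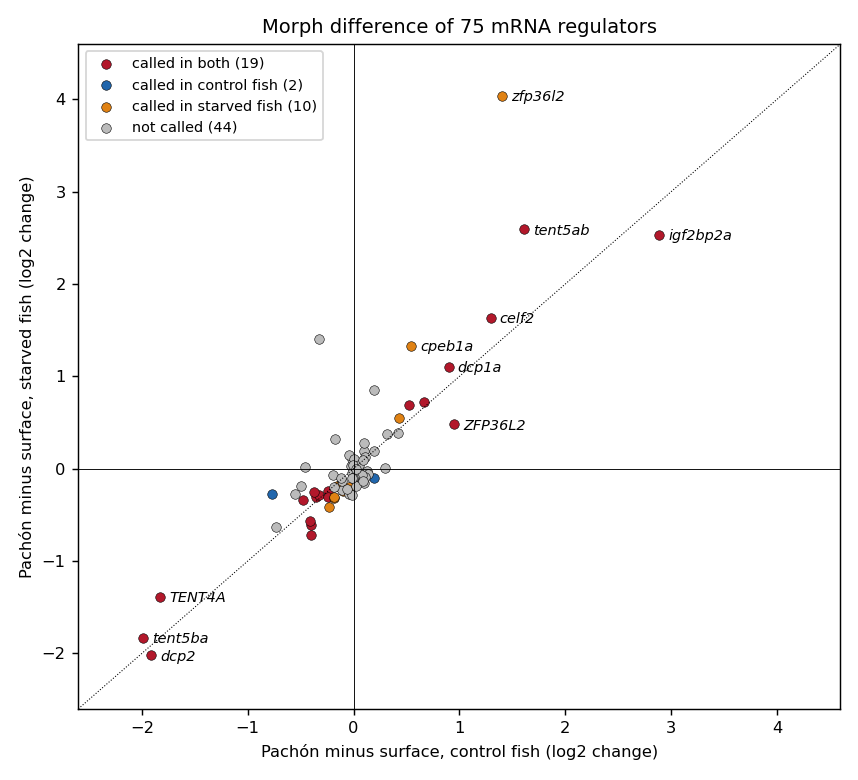
Fitted log2 difference of Pachón minus surface fish for the 75 members, in control fish (x axis) and in starved fish (y axis), with 1 point per gene coloured by where it was called. The 19 members called in both lie at the lower left or the upper right, and dcp2, tent5ba and 1 of the rows named TENT4A lie farthest to the lower left.

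Within the decapping complex, the catalytic subunit and an activator differed in opposite directions. Transcripts of dcp2, the enzyme that removes the cap, were at 39.4 to 62.8 CPM (median 49.1) in starved Pachón fish and 32.5 to 55.1 CPM (median 49.4) in control Pachón fish. They were at 228, 190, 188 and 217 CPM in starved surface fish and 158 to 191 CPM (median 172) in control surface fish. Every Pachón library lay below every surface library. The fitted log2 difference was -2.02 ± 0.12 in starved fish (edgeR adjusted p = 4.68e-10) and -1.91 ± 0.11 in control fish (edgeR adjusted p = 5.31e-10), 4.06-fold and 3.76-fold lower in Pachón. In single batches it ranged from -2.17 (starved, old) to -1.73 (control, old) and was called each time.

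Its activator dcp1a was at 160 to 214 CPM (median 187) in starved Pachón fish and 166 to 189 CPM (median 183) in control Pachón fish. Levels were 92.2, 79.7, 133.7 and 48.1 CPM in starved surface fish and 83.9 to 125 CPM (median 97.6) in control surface fish. Every Pachón library lay above every surface library. The fitted difference was 1.1 ± 0.18 in starved fish (edgeR adjusted p = 0.000132) and 0.90 ± 0.16 in control fish (edgeR adjusted p = 0.000377), and it was called in each batch, between 0.75 and 1.12. The paralogue dcp1b and the decapping enhancers edc3 and edc4 were not called between the forms in either state. Among starved fish, dcp1b was at 49.7 to 66.4 CPM in Pachón and 59.9 to 78.8 CPM in surface, and edc4 at 287 to 333 CPM in Pachón and 327 to 361 CPM in surface.

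The gene labelled ZFP36L2 encodes a zinc-finger protein that binds AU-rich elements and recruits CCR4-NOT, and in mouse its loss makes females infertile. It was at 95.2 to 143.7 CPM (median 102) in starved Pachón fish and 95.9 to 115 CPM (median 104) in control Pachón fish, against 88.1, 86.7, 77.7 and 53.9 CPM in starved surface fish and 38.4 to 77.6 CPM (median 59.8) in control surface fish. Again no Pachón library reached down to a surface library. It differed by 0.48 ± 0.13 in starved fish (edgeR adjusted p = 0.00715) and 0.95 ± 0.12 in control fish (edgeR adjusted p = 8.12e-06). In starved fish of the old batch alone it was 0.38 and was not called. A separate row with the same symbol in lower case, zfp36l2, had only 61 counts over 6 starved Pachón libraries and 4 over 4 starved surface libraries. In control fish it had 43 and 17 counts. It reached the minimum count through Pachón libraries alone, so these counts are no support for a difference. Whether the rows are copies that share reads was not tested. The other Zfp36 members, zfp36l1a and the sparsely counted zfp36l1b, were not called between the forms.

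Across all 12 Pachón and all 10 surface libraries, whatever the feeding, 5 members did not overlap (8.49% of all genes did not). Besides dcp2, dcp1a and ZFP36L2 these were celf3a and 1 of the rows named TENT4A. The symbol TENT4A, a poly(A) polymerase that can interrupt tails with other nucleotides, stands on 2 rows. The row that differed, ENSAMXG00000017691, was at 96.7, 24.9, 89.8, 28.1, 29.1 and 38.3 CPM in starved Pachón fish and 80.2, 36.8, 84.1, 38.4, 27.9 and 34.8 CPM in control Pachón fish. It was at 113 to 120 CPM in starved surface fish and 117 to 183 CPM in control surface fish. The fitted difference (log2) was -1.39 ± 0.36 in starved fish (edgeR adjusted p = 0.00635) and -1.83 ± 0.34 in control fish (edgeR adjusted p = 0.000633). The Pachón libraries themselves fell into 4 between 80.2 and 96.7 CPM, replicates 1 and 3 of both old-batch groups, and 8 at or below 38.4 CPM. In starved fish of the old batch alone it was not called (edgeR adjusted p = 0.108), and in those of the new batch the difference was -1.78. The other TENT4A row, ENSAMXG00000039964, was at 980 to 1388 CPM in Pachón and 973 to 1497 CPM in surface fish, with a log2 difference of -0.01 in starved fish and 0.02 in control fish.

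**Figure D2:**
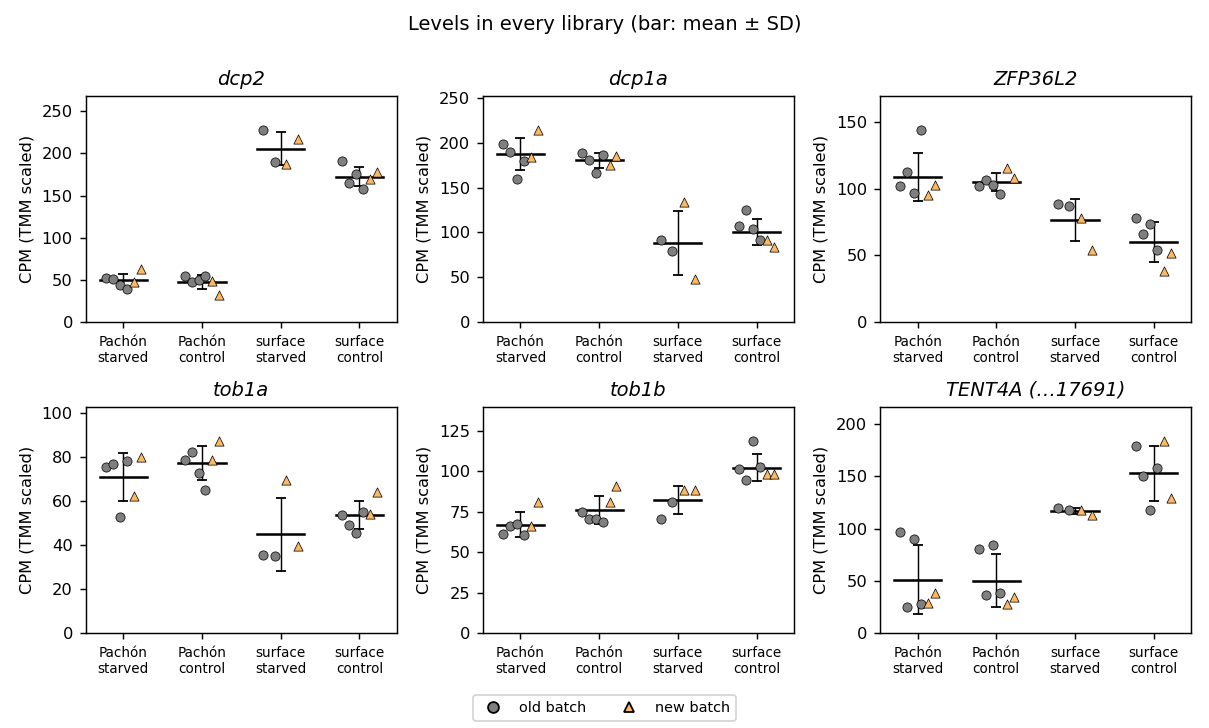
Level of 6 members in every library (y axis, CPM after TMM scaling, starting at 0) for starved and control Pachón fish and starved and control surface fish, with points shaped by batch and bars giving the mean and SD. For dcp2, dcp1a, ZFP36L2 and the TENT4A row shown, no Pachón library reaches the range of the surface libraries, whereas tob1a and tob1b overlap.

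Among the 18 deadenylation genes, 1 was higher and 7 lower in Pachón between starved fish, and 1 was higher and 4 lower between control fish, where 18.3% and 17.7% of all genes in starved fish and 16.6% and 18% in control fish were higher and lower. The higher one was in both cases tob1a, an adaptor of the BTG/Tob family that tethers the Cnot7 deadenylase to RNA-binding proteins. It was at 52.9 to 79.9 CPM (median 76.1) in starved Pachón fish and 65.0 to 87.1 CPM (median 78.7) in control Pachón fish. It was at 35.4, 34.9, 69.7 and 39.7 CPM in starved surface fish and 45.4 to 64.3 CPM (median 54.0) in control surface fish. The forms overlapped in starved fish, through 1 surface library, and did not in control fish. On the log2 scale the difference was 0.69 ± 0.15 in starved fish (edgeR adjusted p = 0.00112) and 0.52 ± 0.13 in control fish (edgeR adjusted p = 0.00511). Within the new batch alone it was 0.37 and 0.48 and was not called.

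Its paralogue tob1b differed the other way. Levels were 60.5 to 81.3 CPM (median 66.2) in starved Pachón fish and 68.7 to 91.2 CPM (median 72.7) in control Pachón fish, against 70.3, 81.1, 88.7 and 88.6 CPM in starved surface fish and 94.4 to 118 CPM (median 100.0) in control surface fish. The control groups did not overlap and the starved groups did. The log2 difference was -0.26 ± 0.08 in starved fish (edgeR adjusted p = 0.0191) and -0.37 ± 0.08 in control fish (edgeR adjusted p = 0.000858). Of the 4 within-batch values, all negative, the one in control fish of the old batch (-0.55) was called.

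The Caf1-type catalytic subunit cnot7 was at 22.2 to 30.5 CPM (median 27.3) in starved Pachón fish and 20.1 to 36.7 CPM (median 27.8) in control Pachón fish. Surface levels were 45.4, 37.3, 34.3 and 46.8 CPM in starved fish and 32.8 to 39.1 CPM (median 35.9) in control fish. Starved Pachón and surface fish did not overlap, and control fish did. In control fish cnot7 was not called in either batch alone. The fitted difference (log2) was -0.61 ± 0.13 in starved fish (edgeR adjusted p = 0.00136) and -0.40 ± 0.12 in control fish (edgeR adjusted p = 0.0167), where the call was lost without replicate 2 of either new-batch control group. Smaller differences in the same direction were called in both states for cnot9, the subunit that binds recruiting proteins (-0.25 starved and -0.24 control), and for PAN2, the catalytic partner of the other deadenylase (-0.31 starved and -0.35 control, the control call lost without new-batch control Pachón replicate 2). For PAN2 in control fish the difference was -0.15 in the old batch, not called (edgeR adjusted p = 0.355), and -0.56 in the new batch, and in starved fish it was -0.29 without the library that stood apart, not called (edgeR adjusted p = 0.0673). In starved fish, but not in control fish, pan3 (-0.32), cnot6a (-0.31) and cnot2 (-0.18) were also called. Without new-batch starved surface replicate 2, the cnot6a difference was -0.16 and the cnot2 difference -0.11, and neither was called (edgeR adjusted p = 0.0981 and 0.222). The pan3 difference was -0.51 in the old batch and -0.13 in the new batch, where it was not called. The scaffold subunit cnot1 was called in neither state, with 1308 to 1719 CPM in starved Pachón fish and 1647 to 2015 CPM in starved surface fish, and neither was cnot6l, a catalytic subunit that in mouse oocytes acts on maternal messages.

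Of the 3 CELF members, which bind GU-rich elements, 2 were higher in Pachón in both states. The row celf3a was at 17.6 to 30.4 CPM (median 21.0) in starved Pachón fish and 19.7 to 23.5 CPM (median 21.7) in control Pachón fish, against 11.5, 14.4, 15.6 and 16.5 CPM in starved surface fish and 8.01 to 16.4 CPM (median 13.8) in control surface fish. The log2 difference was 0.73 ± 0.17 in starved fish (edgeR adjusted p = 0.00225) and 0.67 ± 0.15 in control fish (edgeR adjusted p = 0.00239). Within single batches celf3a was not called in starved fish of the old batch or in control fish of the new batch. The less abundant celf2 differed by 1.63 ± 0.42 in starved fish and 1.30 ± 0.37 in control fish (edgeR adjusted p = 0.00503 and 0.0104), on 3.22 to 13.5 CPM in Pachón and 1.05 to 4.58 CPM in surface libraries, which overlapped. The call in control fish was lost without new-batch control Pachón replicate 2 and in each batch on its own (old batch 1.14, edgeR adjusted p = 0.0516, and new batch 1.46, edgeR adjusted p = 0.107). In starved fish celf2 was at 2.43 in the old batch and 0.84 in the new batch, not called (edgeR adjusted p = 0.377), and it was not called by limma voom (1.43, adjusted p = 0.0826). The third, celf1, which in Xenopus promotes deadenylation of maternal messages after fertilization, was called in neither state, with 236 to 289 CPM in starved Pachón fish and 243 to 371 CPM in starved surface fish.

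Proteins that bind or lengthen tails and activate translation follow. None of the 6 poly(A)-binding members was called in control fish. In starved fish 1 was, pabpc1l, the poly(A)-binding protein of oocytes and early embryos in vertebrates. It was at 244 to 301 CPM (median 284) in starved Pachón fish, against 124, 121, 242 and 365 CPM in starved surface fish, so that the surface range enclosed the Pachón range. The fitted difference (log2) was 0.55 ± 0.21 (edgeR adjusted p = 0.047), with 1.14 in the old batch and -0.04 in the new batch, and the call was lost in 15 of 22 fits that left out 1 library each. The row PABPN1L, the embryonic relative of a nuclear poly(A)-binding protein, which in mouse carries Btg4 to maternal messages, was called in neither state.

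Of the 6 CPEB members, CPEB4 was lower in Pachón in both states (log2 difference -0.28 ± 0.09 in starved and -0.33 ± 0.09 in control fish, edgeR adjusted p = 0.0258 and 0.00647). It was at 37.7 to 45.9 CPM in starved Pachón fish and 38.4 to 51.6 CPM in control Pachón fish, against 47 to 58.3 CPM in starved surface fish and 53.9 to 68.5 CPM in control surface fish, with no overlap within either state. Old-batch controls were at 38.4 to 44.1 CPM in Pachón and 55.0 to 68.5 CPM in surface fish. New-batch controls lay closer, at 51.2 and 51.6 CPM in Pachón and 56.8 and 53.9 CPM in surface fish. In neither state was CPEB4 called in each batch on its own. The abundant CPEB1 row, cpeb1b, the classical activator of dormant oocyte messages, was called in neither state. It was at 1227 to 2003 CPM in starved Pachón fish and 1199 to 1788 CPM in control Pachón fish, against 1264 to 2791 CPM in starved surface fish and 991 to 1349.7 CPM in control surface fish. Its sparse paralogue cpeb1a was called higher in starved Pachón fish (1.33 ± 0.37, edgeR adjusted p = 0.00902). It was at 8.04 to 9.19 CPM in starved Pachón fish and at 8.21, 11.2, 1.61 and 0.644 CPM in starved surface fish, where only the new batch lay below every Pachón library. The difference was -0.24 in the old batch and 2.9 in the new batch, and it was not called by limma voom (adjusted p = 0.23).

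The poly(A) polymerase tent2, which works with CPEB, was called in neither state, with 117 to 135 CPM in starved Pachón fish and 110 to 140 CPM in starved surface fish. TUT4, which adds uridines to short tails, was called lower in starved Pachón fish, by 0.24 on the log2 scale (edgeR adjusted p = 0.0119), at 216 to 281 CPM in Pachón and 278 to 321 CPM in surface fish, and was not called in control fish. Without the library that stood apart TUT4 was at -0.19 and was not called (edgeR adjusted p = 0.0599), and it was at -0.42 in the old batch and -0.07 in the new batch. Among the Tent5 genes, a family of cytoplasmic poly(A) polymerases, tent5c was not called, and the others had few counts. The row tent5ba had 72 counts over 6 starved Pachón libraries and 158 over 4 starved surface libraries, a ratio of 0.275 (95% interval 0.205 to 0.366), and 46 and 184 counts over 6 libraries each in control fish, a ratio of 0.270 (0.191 to 0.375). The row tent5ab ran the other way, with 161 and 13 counts in starved fish, a ratio of 7.48 (4.25 to 14.4), and 90 and 36 in control fish, a ratio of 2.7 (1.82 to 4.10). These intervals cover counting error only and leave out the spread between libraries. In starved fish tent5ab had 24, 50, 17, 55, 10 and 5 counts in Pachón libraries and 0, 2, 10 and 1 in surface libraries. Both rows were called in both states. Within batches tent5ba was not called in control fish of the old batch or in starved fish of the new batch. For tent5ba, leaving out new-batch starved surface replicate 1 ended the call in starved fish, at a log2 difference of -1.02. For tent5ab the call in control fish was lost in 4 of 22 such fits, and within batches it was called in the old batch (log2 difference 4.91 in starved and 2.85 in control fish) and not in the new batch (0.27 and 0.37).

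Of the 14 Lsm members, LSM11, which belongs to the particle that processes replication-dependent histone transcripts, was lower in Pachón in both states. It was at 26.7 to 37.4 CPM (median 33.7) in starved Pachón fish and 30.0 to 41.8 CPM (median 36.1) in control Pachón fish, against 48.1 to 52.2 CPM in starved surface fish and 39.5 to 53.5 CPM (median 50.8) in control surface fish. On the log2 scale the difference was -0.57 ± 0.11 in starved fish (edgeR adjusted p = 0.000533) and -0.41 ± 0.10 in control fish (edgeR adjusted p = 0.00437). Within the new batch alone LSM11 was called in neither state. The subunit lsm8 was called lower in starved fish (-0.42, edgeR adjusted p = 0.0351), a call that was lost in 5 of 22 fits that left out 1 library each, among them the one without the library that stood apart (-0.20), and without either old-batch starved surface library, old-batch starved Pachón replicate 2 or new-batch starved Pachón replicate 2. The storage-granule gene lsm14ab was called higher in control Pachón fish (0.19, edgeR adjusted p = 0.0184), and this call was lost without replicate 2 of either new-batch control group. Neither lsm14b nor lsm1, a subunit of the ring that promotes decapping, was called. The exonuclease xrn1, which degrades decapped messages, and its nuclear relative xrn2 were lower in starved Pachón fish, by 0.20 and 0.19 on the log2 scale (edgeR adjusted p = 0.0344 and 0.039), and were not called in control fish. Without the library that stood apart neither was called, at -0.10 and -0.11 (edgeR adjusted p = 0.293 and 0.241), and within single batches neither was called.

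Of the 6 readers, igf2bp3, which binds and stabilizes maternal messages in zebrafish, was lower in Pachón in both states. It was at 104 to 213 CPM (median 167) in starved Pachón fish and 152 to 240 CPM (median 164) in control Pachón fish, against 253, 252, 214 and 407 CPM in starved surface fish and 228 to 252 CPM (median 235) in control surface fish. The starved groups did not overlap. Within the new batch alone igf2bp3 was called in neither state. The log2 difference was -0.72 ± 0.16 in starved fish (edgeR adjusted p = 0.00196; -0.44 without the library that stood apart, adjusted p = 0.0272) and -0.40 ± 0.15 in control fish (edgeR adjusted p = 0.0457). In control fish the call was lost in 16 of 22 fits that left out 1 library each. The m6A reader ythdf3 was also lower in both states (-0.30 and -0.24), and ythdf2, required in mouse oocytes for the clearance of maternal messages, was called in neither. The sparse igf2bp2a had 72 counts over 6 starved Pachón libraries and 7 over 4 starved surface libraries, and 25 and 3 counts in control fish. It too reached the minimum count through Pachón libraries alone, so these counts are no support for a difference. The fitted log2 difference in control fish was 2.89, and 0.30 without new-batch control Pachón replicate 1 (edgeR adjusted p = 0.883). Its relative igf2bp2b was called lower in control Pachón fish (-0.77, edgeR adjusted p = 0.0172), at 12.4 to 20.7 CPM against 14.3 to 57.7 CPM in control surface fish, and lost the call without new-batch control surface replicate 2 or either new-batch control Pachón library. It was at -0.25 in the old batch, not called, and -1.30 in the new batch.

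Markers of other cell types differed between the forms as well. Skeletal muscle markers, of which the creatine kinase gene ckmb held 21070 counts over all libraries and the next, tnnt3b, 261, summed to 139 to 835 CPM in starved Pachón fish and 115 to 302 CPM in control Pachón fish, against 33.1 to 71.2 CPM in starved surface fish and 15.2 to 44.0 CPM in control surface fish. Of the 3 tested, ckmb and tnnt3b were higher in Pachón in both states and acta1b was not called. In starved fish, 6 of 11 stroma markers, 5 of 6 smooth muscle markers and 3 of 3 theca and steroid cell markers tested were higher in Pachón, and 1 stroma marker was lower. In control fish 1 of 11 stroma markers was lower, 1 of 6 smooth muscle markers was higher, and none of the 3 theca markers was called. Of 8 granulosa markers, 3 were higher and 1 lower in starved Pachón fish, and 1 was lower in control Pachón fish. Of 8 oocyte markers, 1 was lower in starved Pachón fish, and 1 was higher and 1 lower in control Pachón fish. Their part in the member differences was not tested.

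The second question was how the ovary responds to starvation. In surface fish 2 of 75 members were called, 1 higher and 1 lower, where 7.79% of all genes tested were called (2.42% higher and 5.37% lower). At an unadjusted p under 0.05 there were 28 members, where 25.5% of all genes passed, and the median log2 change was 0.10 over members and -0.01 over all genes. Starved surface fish had less tob1b, by 0.30 ± 0.08 on the log2 scale (edgeR adjusted p = 0.0287), with no library overlapping. They had more ZFP36L2, by 0.46 ± 0.13 (edgeR adjusted p = 0.0366), and here the libraries overlapped. The library values are those given above for the comparison of the forms. No member was called within the old batch (0.147% of all genes) or the new batch (4.18%): the old-batch value was -0.46 for tob1b and 0.37 for ZFP36L2, and the new-batch value was -0.15 and 0.55.

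These calls depended on single libraries. Without new-batch starved surface replicate 2 the median log2 change over members was 0.03. In that fit tob1b was at -0.30 and no longer called, and ZFP36L2 was at 0.59. Without replicate 1 of the same group, the library that stood apart is the only one of its group, and the median log2 change over members was 0.15. The tob1b call was also lost without old-batch starved surface replicate 1 or either new-batch control surface library. The ZFP36L2 call was lost without either old-batch starved surface library, old-batch control surface replicate 4, new-batch control surface replicate 1 or new-batch starved surface replicate 1. The next members by p were tent5bb (7 counts over 4 starved and 47 over 6 control libraries, edgeR adjusted p = 0.0616), pabpc1b (0.44 ± 0.15, edgeR adjusted p = 0.0698) and lsm14ab (0.19 ± 0.06, edgeR adjusted p = 0.0722), none of which was called. For pabpc1b the value was 0.22 without the library that stood apart. In all, 7 members did not overlap between starved and control surface fish, where 4.54% of all genes did not: cnot2, dcp1b and ythdf2 lay above the controls, and cnot11, tob1b, LSM10 and tent5bb below. Of these, cnot2, dcp1b, ythdf2, cnot11 and LSM10 are named only for this count, after their values were seen.

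In Pachón fish no member was called after starvation, and 0% of all genes tested were. At an unadjusted p under 0.05 there were 7 members by edgeR, where 7.32% of all genes passed. DESeq2 and limma called 0 members, among 12 and 0 genes called. The median log2 change was 0.06 over members. The members with the smallest p were tent5bb, with 17 counts over 6 starved and 49 over 6 control libraries, cnot9 (0.17 ± 0.06), tent2 (0.20 ± 0.08), lsm12a (0.19 ± 0.08) and tob1b (-0.19 ± 0.08), each with an edgeR adjusted p of 0.635. For cnot9 the starved Pachón libraries were at 112 to 125 CPM and the controls at 95.7 to 117 CPM. No member separated starved from control Pachón libraries without overlap (0.602% of all genes did).

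The difference of the response between the forms (Pachón minus surface) was called by edgeR for no member and for 0.0256% of all genes. DESeq2 and limma called 0 members, among 107 and 0 genes called. At an unadjusted p under 0.05 by edgeR there were 2 members, where 9.27% of all genes passed. The smallest p belonged to lsm14ab, at a log2 value of -0.29 ± 0.09 (edgeR adjusted p = 0.245). It was followed by ZFP36L2, at -0.47 ± 0.18 (edgeR adjusted p = 0.391). A call in surface fish and its absence in Pachón fish is therefore no shown difference between them.

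**Figure D3:**
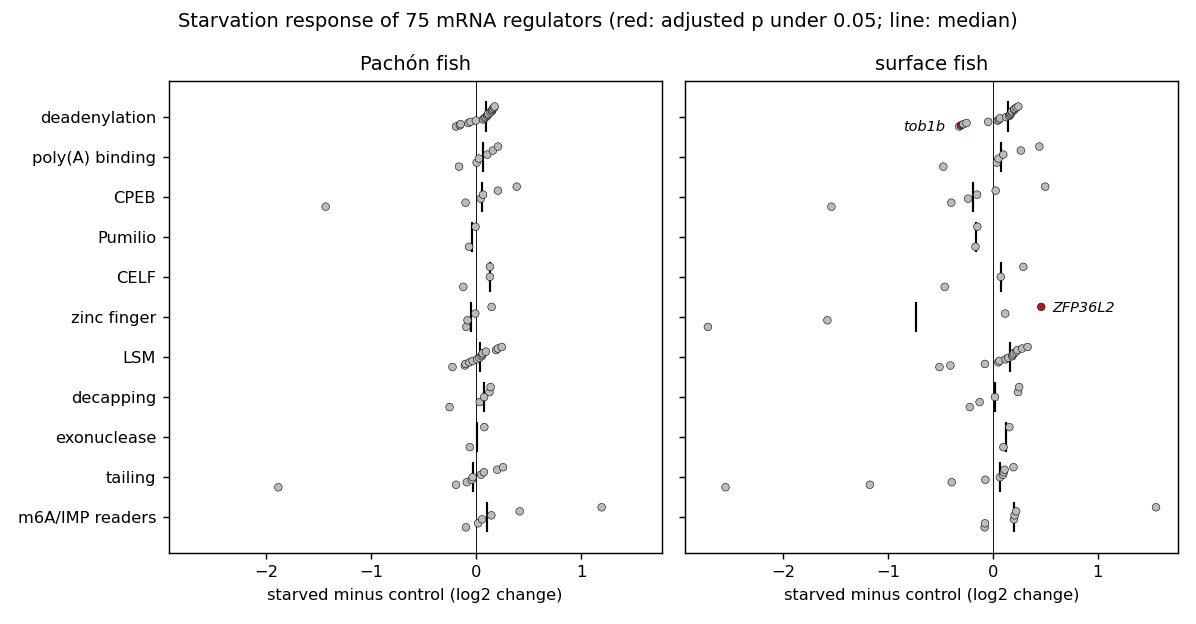
Fitted log2 change of starved minus control fish (x axis) for the 75 members, grouped by role (y axis), in Pachón fish (left) and surface fish (right), with 1 point per gene, red where the adjusted p was under 0.05 and a line at the median of each role. Only tob1b and ZFP36L2 in surface fish are red, and most members lie close to 0 in both panels.

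Partner genes of these pathways, taken from lists outside the symbol rule, were tested in the same fit. In starved surface fish 9 of 115 were higher and 4 lower (11.3%, where 7.79% of all genes were called). Without the library that stood apart 2 were higher and 3 lower. None of the 115 was called by limma voom or with surface libraries alone, where 0% of all genes were called. None was called within the old batch (0.147% of all genes), and 7 were within the new batch (4.18%). Of 15 deadenylation partners, btg1, an adaptor of the same family as tob1b, fell by 1.76 on the log2 scale (edgeR adjusted p = 0.00328), the microRNA effector TNRC6C fell by 1.42 (edgeR adjusted p = 0.00277) and the Argonaute gene ago3b fell by 0.52 (edgeR adjusted p = 0.0164). Both other calls in that list were rises, btg2 at 0.48 and btg4, the deadenylation adaptor that in mouse triggers maternal mRNA clearance, at 0.53 (edgeR adjusted p = 0.0237 and 0.0326). Both btg2 and btg4 lie outside the rule of 3 genes per list and were chosen after their values were seen. Rises in other lists were 3 genes of nonsense-mediated decay, 1 exosome gene, 1 polyadenylation partner and 2 genes of the list holding DDX6. The helicase DDX6 itself fell by 0.47 (edgeR adjusted p = 0.0119). Of these, ago3b (-0.35), btg2 (0.34) and btg4 (0.26) were not called without the library that stood apart (edgeR adjusted p = 0.0808, 0.145 and 0.256). In starved surface fish, 9 of 11 stroma, 4 of 8 granulosa, 4 of 6 smooth muscle and 3 of 3 theca and steroid cell markers tested were lower, 1 smooth muscle marker was higher and 1 of 8 oocyte markers was higher, and their part in these changes was not tested. In starved Pachón fish none of the 115 was called (edgeR, 10 at an unadjusted p under 0.05).

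Between the forms, 9 partner genes were higher and 24 lower in starved Pachón fish, and 16 were higher and 16 lower in control Pachón fish. These were 28.7% and 27.8% of the 115, where 36% of all genes in starved and 34.6% in control fish were called. Only 7 of the 33 calls in starved fish and 7 of the 32 in control fish were made in each batch on its own. By limma voom 11 of the 33 and 0 of the 32 were lost. Without the library that stood apart 15 were higher and 20 lower in starved fish, and 10 of the 33 calls were lost. Of the 12 genes of nonsense-mediated decay, 7 were lower in starved and 2 in control Pachón fish, where 17.7% and 18% of all genes were lower. In surface fish the fitted change after starvation was positive for all 12, and 3 were called higher. How many of the 7 stay called without the library that stood apart is not given here. The endonuclease gene smg6 differed by -0.74, the helicase gene upf1 by -0.53 and casc3 by -0.36 in starved fish (edgeR adjusted p = 2.18e-05, 0.000152 and 0.000372), and in control fish casc3 by -0.38 and upf3b by -0.72. Of the 21 exosome genes and cofactors, 3 were higher and 1 lower in starved Pachón fish and 4 were higher and 2 lower in control Pachón fish. The exosome nuclease DIS3 stands on 2 rows, of which ENSAMXG00000000563 was higher in both (0.40 and 0.53) and the other was not called. Among the polyadenylation partners, cstf1, a subunit of the cleavage factor, was higher in both (0.57 and 1.02), and the canonical poly(A) polymerase papola was lower in both (-0.73 and -0.49). The translational repressor labelled TRIM71 differed by -1.55 in starved and -0.94 in control fish, while a row with the same symbol in lower case, trim71, was called higher in control Pachón fish, a call lost in 18 of 22 fits that left out 1 library each. The lower-case row was chosen after its value was seen.

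The last comparison was of the batches, old minus new, in control fish. No member was called, against 1.24% of all genes. By edgeR 7 members had an unadjusted p under 0.05 (14% of all genes). DESeq2 and limma each called 2, igf2bp2b and ythdf3, where they called 486 and 489 of all 15607 genes tested. The smallest edgeR p belonged to igf2bp2b (-0.94 ± 0.23, edgeR adjusted p = 0.0521) and ythdf3 (0.27 ± 0.07, edgeR adjusted p = 0.0696). No member separated the batches without overlap (0.538% of all genes did).

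Taken form by form, the batches differed for 6 members in surface controls, where 7.36% of all genes were called, and for none in Pachón controls (edgeR, 4 at an unadjusted p under 0.05, where 3.59% of all genes passed), where 0.032% were called. The row cpeb1a was at 4.36, 11.7, 6.49 and 14.0 CPM in old and 2.54 and 1.78 CPM in new surface controls (log2 difference 2.08, edgeR adjusted p = 0.0179), and at 7.66, 5.66, 5.35 and 2.23 CPM in old and 10.2 and 5.99 CPM in new Pachón controls. The reader igf2bp2b was at 14.3, 20.4, 17.0 and 20.1 CPM in old and 41.6 and 57.7 CPM in new surface controls (-1.47, edgeR adjusted p = 0.00896), and at 12.4 to 18.8 CPM in old and 19.7 and 20.7 CPM in new Pachón controls. In both cases the surface batches did not overlap. Higher in old surface controls were also ZFP36L2 (0.58), lsm14aa (0.43) and ythdf3 (0.36), and lower was tent5ab (-2.67). The difference of the batch effect between the forms, surface minus Pachón, was tested after these values were seen. It was called for no member (edgeR, 8 at an unadjusted p under 0.05) and for 1.02% of all genes, and was largest by p for cpeb1a (2.71 ± 0.66, edgeR adjusted p = 0.0563).

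**Figure D4:**
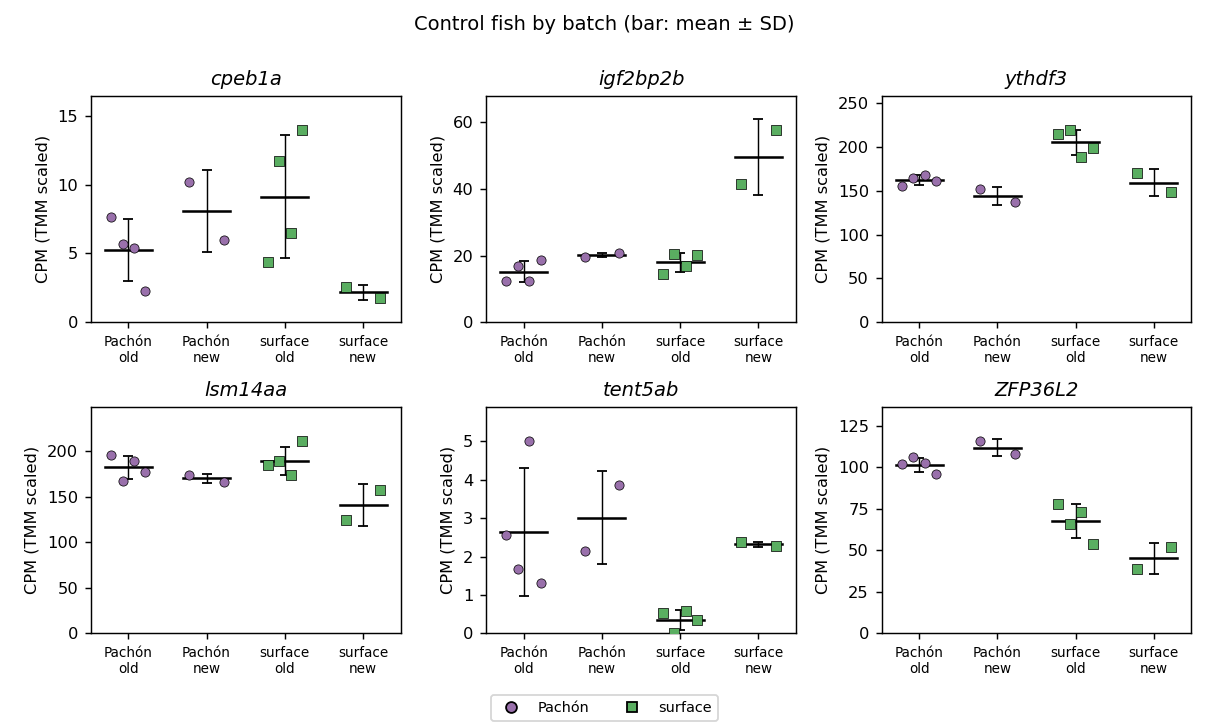
Level in each control library (y axis, CPM after TMM scaling, starting at 0) of the 6 members called between batches in surface controls, for old and new Pachón and old and new surface fish, with bars giving the mean and SD. In surface fish cpeb1a is higher in the old batch and igf2bp2b in the new batch, without overlap, while Pachón libraries of both batches lie at 12.4 to 20.7 CPM for igf2bp2b.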

How the data were processed

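All tests used the raw counts that the authors deposited, whole numbers for each gene in each library. Their scaled CPM table was not used. Alignment and counting tools named in the submitters' processing notes are STAR 2.7.10b and RSEM. No source used here gives the build, annotation or strandedness, so coordinates are not printed and reads of overlapping genes cannot be told apart. Rows that name no gene (4 rows, 32.4% to 44.6% of listed reads) were left out. Reads in genes made up 63.4% to 67.6% of listed reads in starved libraries and 55.4% to 64.1% in control libraries. Multimapping reads made up 7.9% to 11.1% in starved libraries and 10.7% to 17.6% in control libraries. The part of these differences in the starvation comparisons was not tested. Libraries were grouped by morph, batch and treatment from their titles.

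The tests ran under R 4.3.3 in edgeR 4.0.16 (filterByExpr with a minimum count of 10 and minimum total of 15, TMM, robust quasi-likelihood fit of 8 group means to all 22 libraries). Averages weight batches equally. Tests were 2-sided with Benjamini-Hochberg adjustment over 15607 genes. The SE is the change over the square root of F. Alternatives used DESeq2 1.42.0, limma 3.58.1 (voom with sample weights), RLE size factors, no filter, replicate blocks, single batches or morphs, and each library left out.

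The members and lists were chosen with earlier results of these data known. Named were called members, up to 10 in each direction by size of change, or, where fewer than 5 were called, the 5 smallest p, a set list of oocyte regulators, and up to 3 genes of each partner list by p. Members called outside that rule are given as called. The counts over members include 1 gene that is not reported here. Replicate correlations of log2 CPM were 0.935 to 0.98 over 23 pairs.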

Additional observations from a re-analysis of the deposited data

Results flagged for a closer look

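In groups of 4 libraries, 4 of 129 gene and group combinations examined (43 genes in 3 groups) held a library far from the other 3, where chance gives about 1 in 20. In starved Pachón fish of the old batch, replicate 3 was low for tob1a, at 52.9 CPM against 75.5 to 78.5 CPM in the others. It was high for cpeb1a, at 8.59 CPM against 8.04 to 8.11 CPM. These cpeb1a levels rest on 51 counts against 47, 62 and 62, and the flag arose from the close agreement of the other 3. In control Pachón fish of the old batch, replicate 4 was low for xrn1, at 295 CPM against 320 to 323 CPM. In control surface fish of the old batch, replicate 3 was high for the sparse zfp36l2, at 1.34 CPM against 0 to 0.174 CPM.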

How the results depend on the processing

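Under the alternatives other than leaving out a library, the median log2 change over members lay between 0.07 (old batch) and 0.14 (new batch) for surface starvation, 0.0085 (old batch) and 0.12 (new batch) for Pachón starvation, -0.11 (old batch) and -0.06 (new batch) between starved forms, -0.05 (old batch) and 0.00 between control forms, -0.01 and 0.04 for the batches and -0.09 (old batch) and 0.00 for the difference of the response. For surface starvation (2 members among 1216 genes called) the count was 4 among 1772 genes by DESeq2 and 1 among 939 without a filter on low counts. It was 0 among 23 genes in the old batch and 0 among 652 in the new batch. By limma voom with sample weights, and with the libraries of that morph alone, 0 genes of any kind were called, so these zeros are not particular to the members. Leaving out 1 library gave 0 (without old-batch starved surface replicate 1 or new-batch control surface replicate 1) to 30 (without new-batch starved surface replicate 1). For Pachón against surface fish, the count in control fish (21) was 8 in the new batch and 12 (without new-batch control Pachón replicate 2) to 26 with 1 library left out. In starved fish (29 among 5617 genes called) it was 16 among 3527 by limma voom. It was 17 among 4426 genes in the old batch and 7 among 2610 in the new batch. For surface starvation and for both states between the forms, the lowest and highest counts with 1 library left out came from fits that left 1 library in a group. Those counts are not given here. For the batches (0) it was 2 by DESeq2, 2 by limma voom, 6 in surface fish alone and 0 to 2 with 1 library left out. For the difference of the response it was 0 to 2 with 1 library left out, and for Pachón starvation 0 throughout. The median over members with 1 library left out lay between 0.03 and 0.15 (surface starvation), 0.05 and 0.07 (Pachón starvation), -0.13 and 0.00 (forms, starved), -0.04 and 0.02 (forms, control), 0.00 and 0.05 (batches) and -0.08 and 0.03 (difference of the response). Reversed in starved fish were cpeb1a in the old batch (-0.24) and pabpc1l in the new batch (-0.044). The causes were not tested. Deviations of same-numbered libraries over all genes tested correlated at -0.19 to 0.11. In groups of 2 to 4 libraries this cannot decide whether the replicate numbers pair them. In the new batch, with groups of 2, the values for numbers 1 and 2 are the same by construction. With a replicate block the surface starvation count was 0 among 493 genes called. With crossed numbers, an alternative added after the data were seen, it was 1 among 1126. The block gave 18 members among 4857 genes in control and 22 among 4808 in starved fish between the forms. RLE scaling moved the median of all genes by at most 0.02. Few counts limit what can be said of tent5bb, zfp36l1b, zfp36l2, igf2bp2a, tent5ab, tent5ba and CPEB2.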
